A study of Drosophila melanogaster with 8 samples.

Results

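The nuclear genes of oxidative phosphorylation were taken as the protein-coding genes of the Ensembl BDGP6 annotation, off the mitochondrial genome, whose symbol begins with ND-, COX and a digit, UQCR, ATPsyn or Sdh and one of the letters A to D. The rule found 87 members among 13973 protein-coding genes. They were divided by name into 63 widely expressed members and 24 L paralogs, the duplicates whose symbol ends in L or in L and a digit. The series asked how depletion of AGO2 (Argonaute2, a small RNA binding protein) changes the chromatin association of NELF-E in Kc167 cells, a female Drosophila line of embryonic origin with hemocyte-like features. NELF-E was mapped by ChIP-seq, in which DNA bound by the protein is immunoprecipitated and sequenced. The siAGO2 cells received 100 pmol of an siRNA against AGO2 by nucleofection. The mock cells went through the same nucleofection with no siRNA, and all were collected 3 days later. There were 2 libraries of each group. No source used here says whether the replicates were separate cultures, so the spread between them may be technical. Inputs, 4 in number, served the authors' peak calls and were not used further.

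Oxidative phosphorylation is carried out by complexes I to V of the inner mitochondrial membrane. Complexes I (ND- genes) and II (Sdh genes) feed electrons to complex III (UQCR genes), complex IV (COX genes) passes them to oxygen, and complex V (ATPsyn genes) makes ATP. In Drosophila many subunits have a second copy under an L symbol, and many such copies are known for expression in the testis. NELF, the Negative Elongation Factor, holds RNA polymerase II paused shortly downstream of the transcription start, so a NELF-E peak over a start marks a promoter at which the factor was detected.

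Depth differed with the treatment. The lists held 5904 and 6206 peaks in siAGO2 replicates 1 and 2, and 7944 and 6933 peaks in mock replicates 1 and 2. The lowest fragment background shared by at least 1% of a list's peaks, which scales with sequencing depth, was 1.18 and 1.48 fragments in the siAGO2 libraries and 4.46 and 2.19 fragments in the mock libraries. Both siAGO2 libraries were thus shallower than both mock libraries, and depth and treatment cannot be told apart. A marker check followed the label of the cells, since 6 of 7 hemocyte genes, 0 of 10 testis genes, 1 of 4 neuron genes (elav) and 0 of 4 muscle genes had a start peak in all 4 libraries. The hemocyte gene with none was NimC1.

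A start motif of the widely expressed members is shown first. Within 500 bp of the start, its share differed from those in L paralogs and all genes by more than any other sequence searched. The nuclear respiratory gene (NRG) octamer is a near-palindrome known from Drosophila genes of mitochondrial energy metabolism. It was searched on both strands in its 4 forms TTACATAA, TTACGTAA, TTATATAA and TTATGTAA. The form TTATATAA overlaps the TATA box letters TATAAA where an A follows it. Sites of 10 members from the 5 complexes are printed 5′ to 3′ on the strand of the gene, with the octamer in capitals, 8 flanking bases and its position from the start. The members shown had a high peak rank in their complex or an L paralog, apart from ND-SGDH, which has a site on each side of the start, and SdhD, which stands for complex II. The bases and dm6 coordinates are those of the RefSeq Release 6 genome.
ND-ACP at +77, chr3L:1330017-1330040, plus strand: cagcacttTTACATAAtcttgaaa
ND-20 at +60, chrX:15986734-15986757, minus strand: agttgaagTTACATAAataggtat
ND-SGDH at -86, chr3L:12138655-12138678, minus strand: aatggattTTATATAAaaatttag
ND-SGDH at +446, chr3L:12138124-12138147, minus strand: ttgcacttTTACGTAAtgctcggc
SdhD at +205, chr3R:23760381-23760404, minus strand: agctttcaTTATATAAccaaaccg
UQCR-Q at +228, chr3L:17475268-17475291, plus strand: tgcgaaaaTTACATAAcctccggg
UQCR-14 at +112, chrX:16286391-16286414, plus strand: ttctgattTTACGTAAaccatgtc
COX5B at +380, chr2L:6558171-6558194, plus strand: gtgcgaggTTATGTAAtaactatg
COX6B at +293, chrX:19744028-19744051, minus strand: agtacaagTTACATAActcgctga
ATPsynC at +411, chr3R:31219134-31219157, minus strand: tccgcatgTTACGTAActtttctg
ATPsynG at +215, chr2L:10976170-10976193, minus strand: tcgcaaaaTTATGTAAtgatcact
The sites of UQCR-Q, COX5B and COX6B lie in the first intron, as does that of SdhD, and that of ATPsynG lies in the second. Those of ND-ACP, ND-20, UQCR-14 and ATPsynC lie in the 5′ UTR. In ND-SGDH the downstream site falls in a coding exon and the other lies upstream of the transcript.

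Downstream of the start the octamer was frequent in the widely expressed members. The division at the start was made after the positions of the sites were seen. It lay between the start and 500 bp downstream in 45 of the 63 widely expressed members (71.4%), in 0 of the 24 L paralogs and in 794 of 13968 protein-coding genes (5.68%). Upstream of the start the shares were close to each other, with 6 widely expressed members (9.52%), 1 L paralog (COX6AL2, at -495) and 9.56% of all genes. Over both sides the octamer was present in 46 widely expressed members (73.0%) and in 14.6% of all genes. A window of 250 bp before to 50 bp after the start, in which promoter motifs are usually read, missed most of the sites. It held the octamer in 5 widely expressed members (7.94%), ND-42, ND-30, ND-SGDH, ND-MNLL and ND-49, against 5.13% of all genes.

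The sites clustered about 200 to 300 bp into the gene. The bin from 201 to 300 bp held the octamer in 22 widely expressed members (34.9%) and in 1.35% of all genes. Of 55 sites in the widely expressed members, 32 were in the first intron, 5 in a later intron, 11 in the 5′ UTR, 1 in a coding exon and 6 outside the transcript. The forms TTACATAA and TTATGTAA alone were within 500 bp of the start in 28 of 63 widely expressed members (44.4%) and in 7.37% of all genes. The 4 forms were used about evenly, with 17 sites of TTACATAA, 13 each of TTATATAA and TTATGTAA and 12 of TTACGTAA. The form TTACGTAA made up 21.8% of the members' sites and 9.27% of the sites of all genes. The first 500 bp had a median GC content of 48.0% in widely expressed members, 44.9% in L paralogs and 46.4% in all genes. Whether base composition bears on the share with the octamer was not tested.

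**Figure D1:**
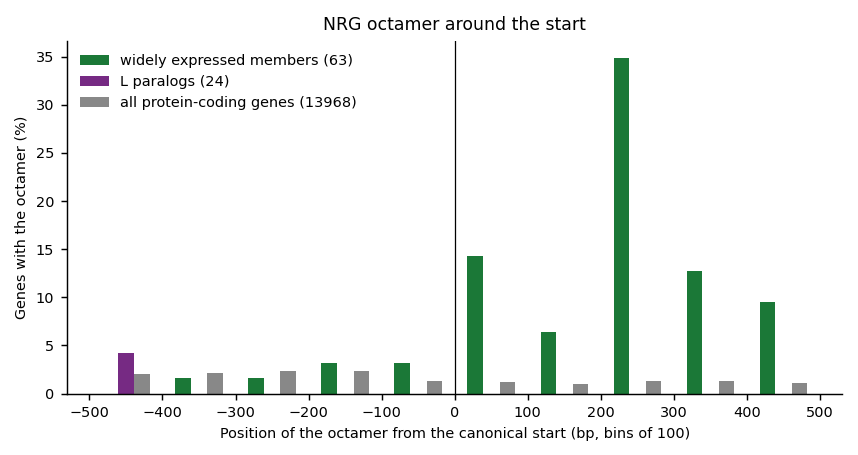
Share of genes (y axis, percent) with the NRG octamer in each bin of 100 bp from 500 bp upstream to 500 bp downstream of the canonical start (x axis), for 63 widely expressed members, 24 L paralogs and 13968 protein-coding genes. The widely expressed members stand at 34.9% in the bin from 201 to 300 bp downstream, where all genes stand at 1.35% and no L paralog has the octamer.

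Every complex held the downstream octamer in most of its widely expressed members. It was found in 23 of 34 members of complex I, 3 of 4 of complex II, 4 of 6 of complex III, 5 of 8 of complex IV and 10 of 11 of complex V, where ATPsynbeta, the catalytic subunit, was the one without it. Genes of the pathway with older names had it in 8 of 9. They were subunits, such as blw (the alpha subunit of complex V), levy and Cyt-c1, and the cytochrome c genes Cyt-c-p and Cyt-c-d. Genes of the citric acid cycle had the downstream octamer in 5 of 9. Mitochondrial ribosomal protein genes had it in 14 of 73 (19.2%), and cytoplasmic ribosomal protein genes in 1 of 92 (1.09%). Among widely expressed members the share with the octamer was close in those held by all 4 libraries and in those held by fewer. It was within 500 bp of the start in 33 of 45 widely expressed members with a start peak in all 4 libraries (73.3%) and in 13 of the 18 others (72.2%), of which 15 had a start peak in 1 to 3 libraries. Among those 45, the median rank of the start peak was the 58.6th percentile with the octamer and the 62.5th without it. In members with a peak in all 4 libraries, 33 of 40 octamers lay downstream of the mean summit, with a median of 231 bp between them (quartiles 103 and 479 bp). The summit is that of the strongest start peak, which in some members lay nearer to another gene's start. The distance was 1025 bp in ATPsynD, beside cdi, and 827 bp in ATPsynCF6, beside Sec13. The median is thus not a distance to peaks at the members' own starts alone.

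Promoter motifs differed less than the octamer within 500 bp of the start, and some differed more in a narrower window around it. Within 500 bp, widely expressed members and all genes had motif 1 in 27.0% and 7.92%, and motif 6 in 19.0% and 9.53%. The E-box CAGCTG was in 63.5% and 42.2%, and the octamer in 73.0% and 14.6%. From 250 bp before to 50 bp after the start, the octamer was in 7.94% and 5.13%. The shares below are for this narrower window. The core of motif 1, GGTCACACT, was searched on both strands from 250 bp before to 50 bp after the start and was present in 15 widely expressed members (23.8%), 1 L paralog (COX7AL) and 5.86% of all genes. Among genes with a start peak in all 4 libraries it was present in 28.9% of the widely expressed members and in 11.8% of all genes. The core of motif 6, GGTATTTT, was present in 11 widely expressed members (17.5%), 0 L paralogs and 5.05% of all genes. The E-box CAGCTG was present in 33.3% of widely expressed members, 8.33% of L paralogs and 17.9% of all genes. Mitochondrial ribosomal protein genes had this E-box in 54.8% and cytoplasmic ones in 9.78%. Among genes with a start peak in all 4 libraries it was present in 28.9% of the widely expressed members and in 20.0% of all genes. The GAGA letters GAGAG ran the other way, with 17.5% of widely expressed members, 41.7% of L paralogs and 30.2% of all genes. The Initiator letters TCAGT were also less frequent in both lists, with 38.1% of widely expressed members, 33.3% of L paralogs and 51.8% of all genes. The DRE letters TATCGATA (12.7% of widely expressed members, 0 L paralogs, 8.94% of all genes), TATAAA (54.0%, 37.5% and 45.3% of the same lists) and the E-box CACGTG (3.17%, 8.33% and 4.25%) were closer to the share of all genes. A match is a run of letters and not a binding site. Both cores are shown for members in which they sit beside the start, with the core in capitals and 8 flanking bases.
ND-18, motif 1 core at -3, chrX:19492410-19492434, plus strand: gctcgcctGGTCACACTggcactgg
ND-B17, motif 1 core at -15, chr2L:15751077-15751101, minus strand: aagagtgcGGTCACACTggcggcaa
COX5B, motif 6 core at -11, chr2L:6557781-6557804, plus strand: cagcgtgtGGTATTTTttcttact
COX5B, motif 1 core at +13, chr2L:6557804-6557828, plus strand: tttaccgcGGTCACACTgatccata
ND-20, motif 6 core at -10, chrX:15986803-15986826, minus strand: gtgcatttGGTATTTTagttagta
The promoter of COX5B, a nuclear subunit of complex IV, held both cores on either side of its start.

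NELF-E was found over the starts of most widely expressed members and over almost none of the L paralogs. A gene had a start peak if a peak overlapped 500 bp either side of one of its starts by at least 1 bp. A start peak in all 4 libraries was found in 45 of 63 widely expressed members (71.4%) and in 1 of 24 L paralogs (4.17%), a difference of 67.3 percentage points, against 37.0% of all protein-coding genes. By library, widely expressed members had 51 and 48 start peaks in siAGO2 replicates 1 and 2, and 60 and 57 in mock replicates 1 and 2. L paralogs had 1 and 2 in the siAGO2 libraries, and 3 and 1 in the mock libraries. The background share of protein-coding genes was 39.2% and 41.1% in the siAGO2 libraries, and 48.1% and 43.5% in the mock libraries. No library had a start peak at 24 members, 3 of them widely expressed and 21 L paralogs, where 51.1% of all genes had none. Cytoplasmic ribosomal protein genes had a start peak in all 4 libraries in 80 of 92 (87.0%), and mitochondrial ribosomal protein genes in 36 of 73 (49.3%).

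**Figure D2:**
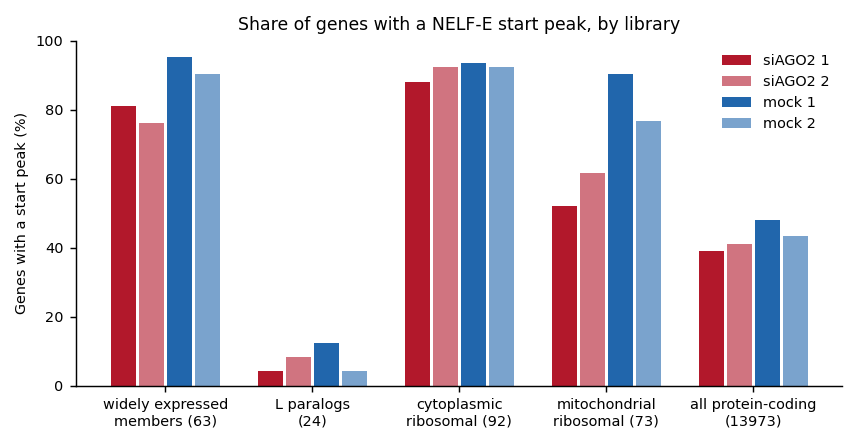
Share of genes with a NELF-E start peak (y axis, percent) in each of the 4 libraries, for widely expressed members, L paralogs, ribosomal protein genes and all protein-coding genes; each bar is 1 library, siAGO2 in red and mock in blue. Widely expressed members stand above all genes in each library, and L paralogs reach 3 of 24 genes at most.

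The share held by all 4 libraries differed between the complexes. It was 22 of 34 widely expressed members for complex I, 2 of 4 for complex II, 5 of 6 for complex III, 6 of 8 for complex IV and 10 of 11 for complex V. The member of complex V outside this count was ATPsynO, a stalk subunit, with a peak in siAGO2 replicate 2 and mock replicate 1. The 3 widely expressed members with no start peak, ND-19, ND-AGGG and ND-B12, are all accessory subunits of complex I. In ND-AGGG only 68.1% of the 50-base words of the start window occur once in the genome. In the other 62 widely expressed members and in all 24 L paralogs that share was at least 95%, so reads from most of these windows can be placed. Other nuclear genes of the pathway had a start peak in all 4 libraries in 24 of 28. The list held subunits and cytochrome c genes with older names, assembly factors, carriers, regulators and citric acid cycle enzymes. The 4 others were Surf1, Scox, Ets97D and mtTFB2, each with a peak in at least 1 library.

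Parent by parent, the L paralogs stood apart. The 24 L paralogs have 21 parents, 18 of which are members, and 15 parents had a start peak in all 4 libraries. In 15 pairs the parent was held by all 4 libraries and its L paralog by none. SdhC, a membrane anchor of complex II, had folds over background of 25.6 and 20.2 in the siAGO2 libraries and 13.2 and 18.4 in the mock libraries, whereas SdhCL had no peak. These are folds of a peak 105 to 110 bp from the start of Tctp. On its own side SdhC had a fold of 18.0 in siAGO2 replicate 1, no peak in siAGO2 replicate 2, and folds of 7.96 and 15.5 in mock. ATPsynbeta had folds of 11.4 and 6.73 in the siAGO2 libraries and 16.8 and 11.6 in the mock libraries, and ATPsynbetaL had no peak. COX5B had folds of 16.9 and 20.1 in the siAGO2 libraries and 17.9 and 13.5 in the mock libraries. COX5BL, which begins just downstream of the end of COX5B, had no peak. The folds are the authors' values and depend on the depth of each library. The other pairs of this kind were ND-20, ND-51 (with ND-51L1 and ND-51L2), SdhB, UQCR-14, UQCR-6.4, ATPsynCF6 and ATPsynG with their L copies, levy with COX6AL and COX6AL2, cype with COX6CL, and sun with ATPsynepsilonL. Like SdhC, some of these parents lacked a summit within 300 bp downstream of an own start in some libraries. ND-51 and ATPsynG had such a peak in 3 libraries and ATPsynCF6 in 2. In the pairs of ND-24, ND-49, ND-B14.5A, SdhA, UQCR-11 and COX4, the parent was held by 1 to 3 libraries and the L copy by none.

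A start peak was found at 3 L paralogs, and the strongest peaks of COX7AL2 and COX7CL did not have their summit at the own start. COX7AL2 was held by all 4 libraries with folds of 4.70 and 5.98 in siAGO2 and 5.56 and 5.10 in mock. Its summits lay 590 and 649 bp upstream of the nearest of its starts in siAGO2, and 639 and 641 bp upstream in mock, inside the long annotated gene. A weaker peak of COX7AL2 lay 200 bp downstream of an own start in siAGO2 replicate 1 (fold 2.63), and 203 and 245 bp downstream in mock (folds 2.78 and 4.98), with none in siAGO2 replicate 2. COX7AL had a peak in siAGO2 replicate 2 and mock replicate 1. COX7CL had a peak in mock replicate 1 with its summit 103 bp from the start of its parent COX7C. The L paralogs are also shorter, with a median length of 744 bp against 1178 bp in widely expressed members, and 6 of 24 consist of a single exon against 0 of 63. Another gene's start lay within 500 bp of 40 of the 63 widely expressed members (63.5%) and of 3 of the 24 L paralogs (12.5%), against 34.4% of all genes. A start peak in all 4 libraries was found in 12 of the 23 widely expressed members without such a neighbour. It was found in 1 of the 21 L paralogs without one, a difference of 47.4 percentage points. Such a neighbour was present at 4805 of all 13973 protein-coding genes. Of the protein-coding genes without one, 2366 had a start peak in all 4 libraries.

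**Figure D3:**
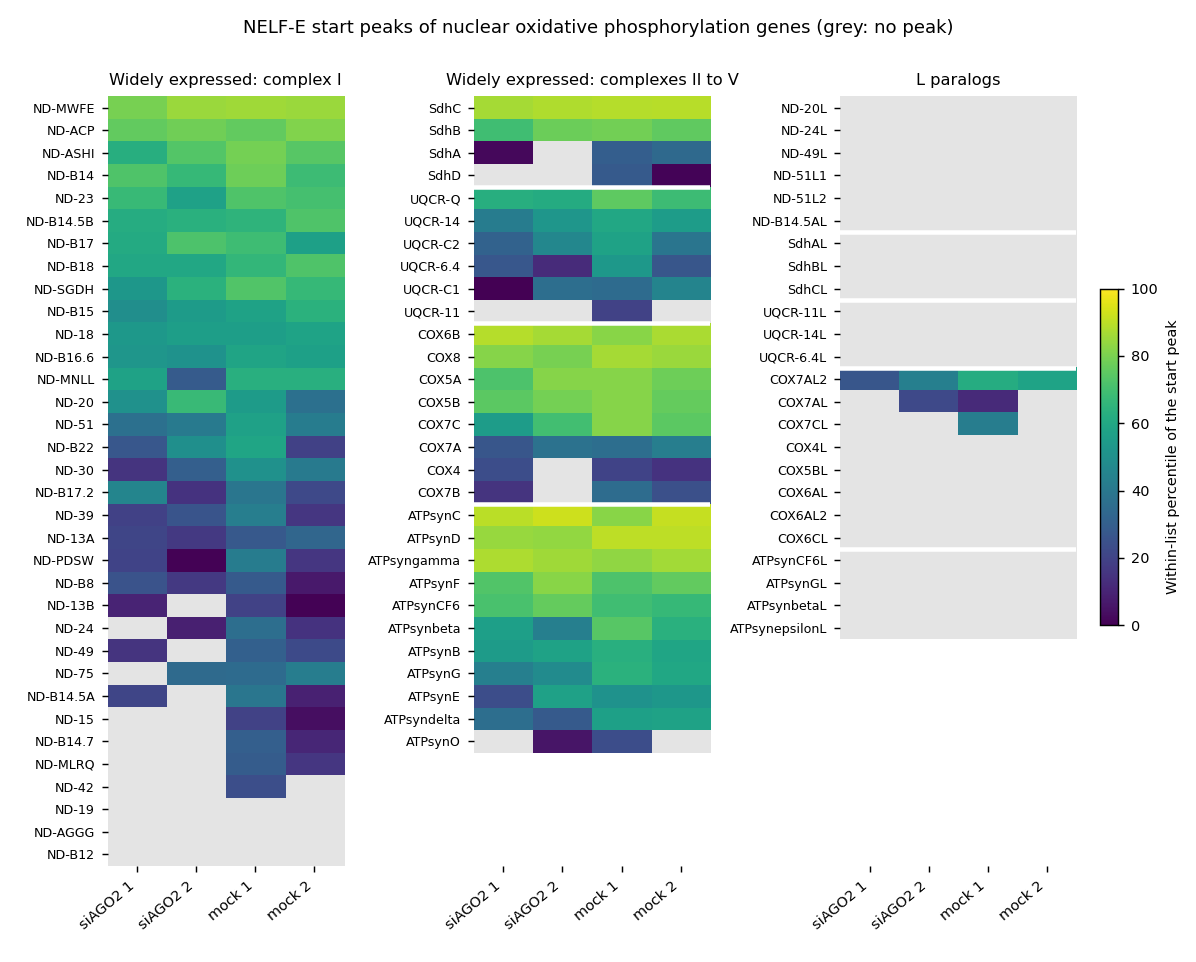
Within-list percentile of the start peak (colour, 0 to 100) for each of the 87 members (rows, grouped by complex) in siAGO2 replicates 1 and 2 and mock replicates 1 and 2 (columns); grey means no start peak. Widely expressed members fill most cells, with ATPsynC the highest by mean at 89.0, while 21 of 24 L paralogs are grey in all 4 columns.

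Start peaks of the members were of middle rank. Peaks were ranked by score within their list and expressed as percentiles, so that 100 is the strongest peak of a library. The mean percentile over the libraries had a median of 58.9 in the 46 members held by all 4 and of 65.6 in the 5175 protein-coding genes held by all 4. No member reached a mean of 90, which 14.4% of those genes did. The strongest was ATPsynC, the subunit of the rotating ring of complex V, at the 89.8th and 92.4th percentiles in siAGO2 and the 82.4th and 91.4th in mock. ATPsyngamma, the central stalk of complex V, stood at 87.8 and 85.8 in siAGO2 and at 83.4 and 86.1 in mock. COX6B, a subunit of complex IV, stood at 88.8 and 86.5 in siAGO2 and at 82.4 and 87.3 in mock. SdhC (mean 88.2) and ATPsynD (mean 87.1) completed the first 5, but their strongest peaks had summits nearer to the starts of the neighbours Tctp and cdi.

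Within each complex the ranks were spread widely. In complex I the highest was ND-MWFE, an accessory subunit, with 79.7 and 84.9 in siAGO2 and 85.6 and 84.8 in mock. The lowest was ND-B8, also an accessory subunit, with 25.5 and 16.6 in siAGO2 and 28.2 and 6.71 in mock. The summit of ND-MWFE was at -469 and -462 bp from its own start, that is upstream, in siAGO2 and at -459 and -507 bp in mock, nearer to the start of a neighbouring gene. In complex II, SdhB, the iron-sulfur subunit, was the lower of the pair held by all 4 libraries, with a mean percentile of 75.3. In complex III, UQCR-Q was the highest (mean 67.0) and the core protein UQCR-C1 the lowest (mean 29.1). UQCR-C1 reached the percentiles 0.144 and 36.2 in siAGO2 and 35.0 and 45.2 in mock. In complex IV the lowest was COX7A, with a mean of 35.7. In complex V it was ATPsyndelta, with a mean of 44.7.

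Peaks of partly held members were weak in the libraries that had them. A start peak in 1 to 3 libraries was found in 15 widely expressed members: ND-13B, ND-15, ND-24, ND-42, ND-49, ND-75, ND-B14.5A, ND-B14.7, ND-MLRQ, SdhA, SdhD, UQCR-11, COX4, COX7B and ATPsynO. None of their peaks reached the 50th percentile of its list. Peaks near the call of a library are those most apt to be missed in another. The ranks of other genes held by 1 to 3 libraries were not compared. The low ranks are thus not read as a trait of the members. ND-75, an iron-sulfur core subunit of complex I, stood at 34.7 in siAGO2 replicate 2, had no peak in siAGO2 replicate 1, and stood at 35.0 and 42.4 in mock. SdhA, the flavoprotein of complex II, was at percentile 2.07 in siAGO2 replicate 1, absent from siAGO2 replicate 2, and at 29.9 and 34.3 in mock. A list that stops at a threshold cannot tell a weaker peak from none, so absence here means below the call of that library.

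The position of the summit differed between members with and without a neighbouring start. Of the 46 members held by all 4 libraries, 27 had the summit downstream of their start in each library, 12 had it upstream in each and 7 were mixed, each position being taken from the nearest own start. Of the 13 with no other start within 500 bp, 12 had the summit downstream in each library and the one exception was COX7AL2. The median of their mean positions was 132 bp downstream (quartiles 128 and 150 bp), against 74.3 bp in the 2366 genes of that kind in the whole annotation. ND-B14, an accessory subunit of complex I, had its summits 138 and 141 bp downstream in siAGO2 and 125 and 146 bp downstream in mock. ND-B22 was as tight, with 133 and 140 bp in siAGO2 and 125 bp in both mock libraries.

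Where a second gene began nearby, the strongest peak often lay on its side. ATPsynD shares its start region with mRpL55, 95 bp away, and its strongest peak was at -803 and -817 bp in siAGO2 and at -810 and -809 bp in mock, within 87 bp of the start of cdi. For ATPsynCF6 the summits were 102 to 141 bp from the start of Sec13. In ND-30 the strongest peak was on a different side between libraries. It lay 89 and 112 bp downstream of its own start in siAGO2 and at -663 and -648 bp, near CG15812, in mock. In COX6B the peak stayed in place and only the nearer of its 2 own starts changed, so that its position was 123 and 140 bp in siAGO2 and -140 and -123 bp in mock. From the other own start the mock summits were 147 and 164 bp downstream. To count only peaks on the members' own side, a rule added after these positions were seen asked for a summit within 300 bp downstream of an own start. It was met in all 4 libraries by 32 of 63 widely expressed members (50.8%) and 0 of 24 L paralogs, against 25.9% of all genes. COX7AL2 met it in 3 libraries. The median position of those peaks was 135.5 and 128.5 bp in the siAGO2 libraries and 134 and 125.5 bp in the mock libraries, against 105 and 106 bp in siAGO2 and 102 and 106 bp in mock for all genes.

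**Figure D4:**
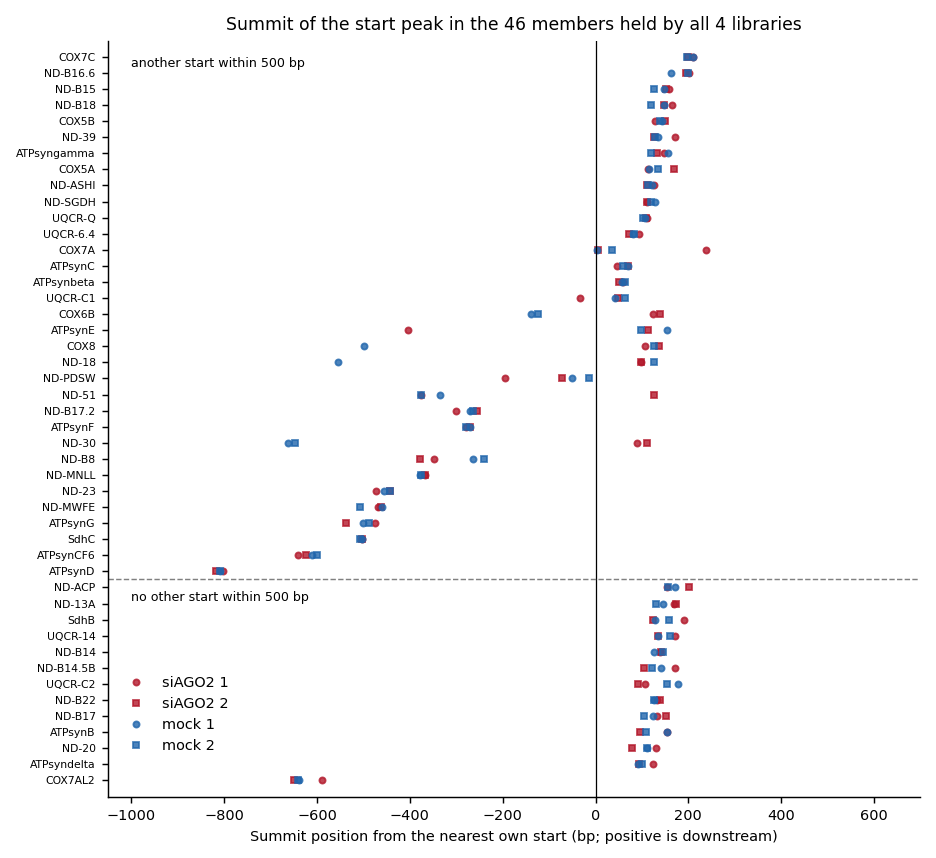
Position of the summit from the nearest own start (x axis, bp, positive downstream) for the 46 members with a start peak in all 4 libraries (rows), with 1 point per library, siAGO2 in red and mock in blue. Below the dashed line, the members without a neighbouring start lie about 132 bp downstream, with COX7AL2 apart; above it, 11 of 33 have the summit upstream in each library.

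Peaks within the gene body were mostly the start peaks themselves. A body peak was present in all 4 libraries in 41 members, 40 of them widely expressed and 1 an L paralog, against 33.3% of all genes. Outside the start windows, 4 members had a body peak in each library, against 3.28% of all genes. In ND-15 these peaks lay within 2 to 129 bp of the starts of the nested genes CG4822, CG3164, Gs1 and CG11454 in siAGO2 replicate 1. In ND-39 they lay 62 and 30 bp from the start of ZnT77C in siAGO2, and 39 and 33 bp from it in mock. ND-MLRQ had a peak 5555 and 5589 bp downstream of its start in siAGO2, and 5619 and 5570 bp downstream in mock, where no other annotated start was nearer. The fourth was COX7AL2.

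Fewer members had a start peak in siAGO2 than in mock cells. The counts were 52 and 50 of 87 in siAGO2 and 63 and 58 in mock, with means of 51.0 ± 1.41 and 60.5 ± 3.54 (SD, n = 2 each). The groups did not overlap, and the difference of -9.5 had an exact two-sided permutation p = 0.333, the smallest that 2 libraries against 2 can give. Body peaks were found in 47 and 47 members in siAGO2 and 58 and 55 in mock, also a difference of -9.5, and 0.5 with the start windows left out. Over all protein-coding genes, body peaks were found in 35.6% and 37.9% in siAGO2 and in 45.8% and 40.4% in mock. With all lists reduced to the same number of top-scoring peaks, the difference in start peaks was -3. The deeper mock libraries also had more peaks in all, and the part of depth in the difference cannot be told apart from that of the treatment. A start peak in both mock libraries and neither siAGO2 library was found in 4 members, against 2.51% of all genes. They were ND-15, ND-B14.7, ND-MLRQ and SdhD, with percentiles of at most 30.4 in mock. No member had the reverse, which 0.00716% of all genes had.

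At the shared peaks the members did not move together. The median log2 enrichment of the summit over the library background in the 46 members held by all 4 libraries was 4.61 and 4.54 in siAGO2 and 4.54 and 4.73 in mock. The difference of -0.053 was smaller than the spread between the mock libraries (exact permutation p = 1). It was 0.033 without siAGO2 replicate 2, 0.042 without mock replicate 2 and 0.24 over the local background. The median percentile of the members' start peaks was 52.7 and 56.5 in siAGO2 and 57.6 and 57.3 in mock, a difference of -2.89 (exact permutation p = 0.333), and of 5.47 with equal list lengths. The median summit position was 111.5 and 107 bp in siAGO2 and 98.5 and 103.5 bp in mock, a difference of 8.25 bp (exact permutation p = 0.333), and of -3.75 bp when only the outermost start of each gene was used.

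Single members were compared after each library was centred on the median of the 5175 genes held by all 4. Both siAGO2 libraries were above both mock libraries in 12 of 46 members (26.1%), against 36.1% of those genes. Both were below in 6 members (13.0%), against 13.9%. The other 28 overlapped. The median difference was 0.076 in the members and 0.098 in all genes on the log2 scale, so neither share stood above its background. By within-list percentile the split was 1 member above and 23 below, and the share of all genes was not counted on that scale. The median percentile of the same 5175 genes was also lower in siAGO2 (61.7 and 64.5) than in mock (71.6 and 67.1). The direction thus depends on the scale, and no count of members is read as an effect of the treatment.

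The members at both ends are given as values. ATPsynCF6 had centred enrichments of 0.68 and 0.75 in siAGO2 and 0.14 and 0.15 in mock, at a peak beside Sec13. ND-39, an accessory subunit of complex I, had -0.67 and -0.77 in siAGO2 and -1.04 and -1.48 in mock. ATPsynC had 1.65 and 1.77 in siAGO2 and 1.06 and 1.41 in mock. ATPsyngamma had 1.41 and 1.31 in siAGO2 and 0.68 and 1.11 in mock. COX6B had 1.63 and 1.41 in siAGO2 and 0.81 and 1.31 in mock. These were the 5 largest differences upward, from 0.46 to 0.57. Of the 10 members of complex V held by all 4 libraries, both siAGO2 libraries were above both mock libraries in 6 (60%) and below in 2 (20%). In complex I they were above in 2 of 22 (9.09%) and below in 2. Among widely expressed members they were above in 1 of 2 in complex II, 0 of 5 in complex III and 3 of 6 in complex IV. They were below in 0, 1 and 0 of these. All genes held by all 4 libraries stood at 36.1% above and 13.9% below. In complex V the strongest peaks of ATPsynCF6, ATPsynF and ATPsynD lay nearest to the starts of Sec13, CG3548 and cdi.

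The largest difference downward was in the L paralog COX7AL2, with -0.81 and -0.55 in siAGO2 and 0.08 and 0.27 in mock. UQCR-C1 had -1.81 and -0.90 in siAGO2 and -0.79 and -0.87 in mock. Its low peak in siAGO2 replicate 1 had the summit at -33 bp, 7 bp from the start of CycC. The summit lay 49 bp downstream in siAGO2 replicate 2 and 43 and 64 bp downstream in mock. ND-30, a core subunit of complex I, had -1.13 and -1.04 in siAGO2 and -0.50 and -0.71 in mock, at the different summits described above. ATPsyndelta, of the central stalk, had -1.04 in both siAGO2 libraries and -0.77 and -0.68 in mock. ND-51, the flavoprotein of complex I, had -1.04 and -0.97 in siAGO2 and -0.75 in both mock libraries, and its summit in siAGO2 replicate 2 lay on the other side of the start. ATPsynbeta was the sixth, with a difference of -0.25. Among the 38 members whose summit positions from the nearest own start differed by at most 150 bp over the 4 libraries, a filter added after the values were seen, 11 were above (28.9%) and 4 below (10.5%), against 38.5% and 12.8% of the genes that met it. COX6B did not meet it, although its peak stayed in place, because its nearest own start changed.

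**Figure D5:**
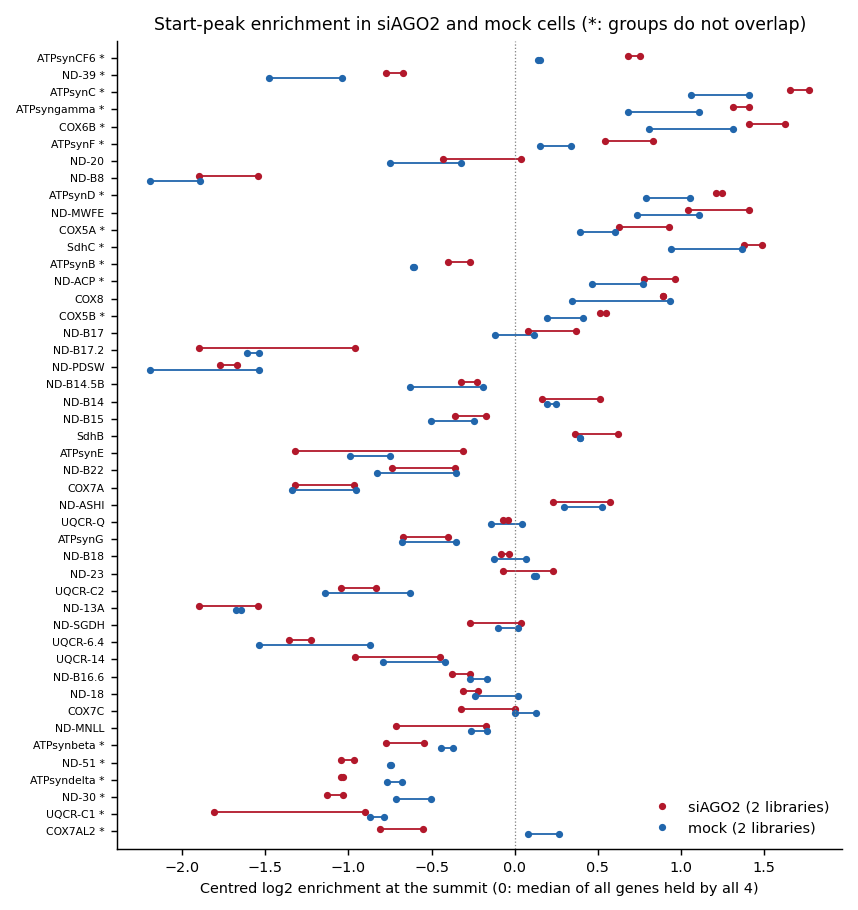
Centred log2 enrichment at the summit of the start peak (x axis, 0 is the median of the 5175 genes held by all 4 libraries) for 46 members (rows), with the 2 siAGO2 libraries in red above the 2 mock libraries in blue; a line joins the libraries of a group and a star marks groups that do not overlap. The stars cover 12 members with siAGO2 higher and 6 with siAGO2 lower, and the other 28 overlap.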

How the data were processed

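Single-end ChIP-seq reads were trimmed with cutadapt and aligned to dm6 with Bowtie2, duplicates were removed with Picard, and peaks were called per replicate with MACS2 2.1.1.20160309 by the authors against input. The deposited lists give for each peak a score (the integer part of 10 times the −log10 q-value), the fold of the pileup over the local background, the −log10 p-value, the −log10 q-value and the summit. No counts per gene are in the lists, so no count model was run. Whole fragments and local background were recovered from fold and −log10 p-value for 26979 of 26987 peaks, which was checked on simulated peaks. Log2 enrichment is the summit's fragments over the library background.

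Starts and bodies were those of Ensembl BDGP6.54 (release 115), read with Python 3.11.15, numpy 2.4.6 and scipy 1.17.1. Where several peaks overlapped a start window, the one with the highest score was used. The canonical start was used for motifs, and all chromosomes of the RefSeq Release 6 genome for sequence. Named members were the L paralogs and their parents, the highest and lowest ranked of each complex, those held by none or some libraries, the 5 highest in rank, the 5 largest differences each way and those with other body peaks. The members and lists were chosen with earlier results of these data known, so no list is independent evidence. Groups were compared by exact permutation of the libraries. Alternatives were other windows, starts, thresholds, equal list lengths, a replicate block and leaving out each library.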

Additional observations from a re-analysis of the deposited data

How the results depend on the processing

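The count of members with a start peak in siAGO2 minus mock kept its direction under every alternative run (-12 to -7 when 1 library was left out). The replicate block left the difference at -9.5 (exact sign-flip p = 0.5, the smallest that 2 pairs can give), and it changed no call, since none of the tests could reach 0.05. The deviations of same-numbered libraries from their group means had a weak negative correlation (r = -0.20 over 5175 genes). With the numbers crossed, a pairing chosen after seeing the data, there were also 0 calls. Body peaks differed by 0.5 outside the start windows. With the start windows included they differed by -11 to -8 when 1 library was left out. The gap of 67.3 percentage points between widely expressed members and L paralogs was 58.9 with a window of 1000 bp, 57.9 with 1500 bp, 47.4 without neighbouring starts and 50.8 by own-side peaks, and 67.3 to 76.8 when 1 library was left out, the highest without siAGO2 replicate 2. Members held by all libraries were 13 without neighbouring starts and 46 to 52 when 1 library was left out. The difference in median percentile was 5.47 with equal list lengths, and with the full lists -4.80 to -0.98 when 1 library was left out. That in log2 enrichment was 0.0071 by the authors' fold and 0.24 over the local background, and -0.15 to 0.042 when 1 library was left out. Summit distance differed by -3.75 bp from the outermost start, and from the nearest own start by 3.25 to 10.75 bp when 1 library was left out. By percentile 1 member was above and 23 below, a split that was not counted over all genes. The octamer, in 5 members from 250 bp before to 50 bp after the start, was in 2 there in the forms TTACATAA and TTATGTAA alone and in 47 within 500 bp of the start. The causes were not tested. Depth limits absence: a member without a peak in a siAGO2 library may hold one below the call.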

Other observations

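The genes that share a start region with widely expressed members also lie near the octamer by position. Of the 41 such protein-coding neighbours, 27 (65.9%) had the NRG octamer within 500 bp of their own start, 24 of them upstream and 6 downstream. A site downstream of a member's start is upstream of the start of a divergent neighbour, and such sites are counted for both genes.

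Beyond the subunits, both adenine nucleotide carriers of the list (the neighbouring genes sesB and Ant2) and all 9 citric acid cycle enzymes had a start peak in all 4 libraries. The highest of the enzymes was kdn, the citrate synthase, whose start lies 228 bp from that of ND-B16.6, with percentiles of 90.4 and 91.4 in siAGO2 and 98.6 and 89.9 in mock. ND-B16.6 stood at 52.5 and 50.8 in siAGO2 and at 58.4 and 56.7 in mock. Fum1, the fumarase, and ND-ASHI have starts 164 bp apart, and the same peak was the strongest of both.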
